A study of Mus musculus with 48 samples.

Results

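RNA levels of 8 genes of the cholesterol pathway, Hmgcs1, Sqle, Idi1, Fdps, Fdft1, Lss, Cyp51 and Insig1, were followed in the mouse thoracic aorta. They were chosen by symbol and make up 8 of the 18782 genes listed in the count table. All libraries came from wild-type (WT) C57BL/6J mice, with 1 library per mouse and 48 libraries in 6 groups. MaCon (10 males) and FeCon (10 females) received normal drinking water. The other 4 groups drank water with 0.4% β-aminopropionitrile (BAPN), an inhibitor of collagen and elastin cross-linking. The treatment lasted 28 days and began in mice 3 weeks old. They were sorted by outcome. The study describes MaNonAD (4 males) and FeNonAD (8 females) as free of microscopically detectable aortic lesions. MaAAD (7 males) and FeAAD (9 females) were mice with aortic dissection or aneurysm. Only mice alive at the end of the induction entered these groups, so that mice lost to aortic rupture were not analysed here. AAD and NonAD were thus assigned after treatment and not by randomization. None of the 8 genes encodes a receptor for cholesterol uptake.

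Cholesterol is built from acetyl-CoA in the endoplasmic reticulum and cytosol. Hmgcs1 makes HMG-CoA near the start of the pathway. Idi1 isomerizes isopentenyl diphosphate and Fdps makes farnesyl diphosphate, which also feeds nonsterol products such as prenyl groups and ubiquinone. Fdft1 (squalene synthase) commits farnesyl diphosphate to sterols, Sqle (squalene epoxidase) oxidizes squalene, Lss closes the ring to lanosterol and Cyp51 removes a methyl group from lanosterol. Insig1 makes no sterol. It holds the SCAP-SREBP complex in the endoplasmic reticulum when sterols are abundant, and SREBP-2 (Srebf2) otherwise moves to the nucleus and switches on the synthesis genes and Insig1 itself. In the artery wall, smooth muscle cells, endothelial cells and macrophages all carry this pathway, and cells that divide need cholesterol for new membranes.

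SREBP binds a sterol response element beside boxes for NF-Y and Sp1, so the promoters were searched for the letters of all 3. RefSeq promoter windows of GRCm38.p6, from 250 bases before to 50 bases after the gene start, were at hand for 5 of the 8 genes (Hmgcs1, Idi1, Lss, Cyp51 and Insig1). The windows were searched on both strands for TCACNCCAC (the core of a sterol response element), CCAAT (the NF-Y box, ATTGG on the other strand) and GGGCGG (an Sp1 box). No match of one motif overlapped a match of another in these 5 windows. The core was found in 1 of the 5 windows, that of Hmgcs1, and in 1.24% of all 32851 windows in the table. CCAAT was found in 5 of 5 windows and in 37.4% of all windows, and GGGCGG in 5 of 5 and in 35.7% of all. Hmgcs1 held 4 CCAAT matches and Idi1 held 2, and a window with at least 2 made up 11.7% of all windows. The absence of the core from a window says only that these letters are not in it. The 250 bases before the start are shown for Cyp51, the member with the largest difference between groups, for Hmgcs1, whose window held the core, and for Idi1, whose level followed both. They lie at chr5:4104698-4104947 on the minus strand, chr13:119690101-119690350 on the plus strand and chr13:8885356-8885605 on the plus strand. Capitals mark matches to the core and to CCAAT in either direction.
Cyp51: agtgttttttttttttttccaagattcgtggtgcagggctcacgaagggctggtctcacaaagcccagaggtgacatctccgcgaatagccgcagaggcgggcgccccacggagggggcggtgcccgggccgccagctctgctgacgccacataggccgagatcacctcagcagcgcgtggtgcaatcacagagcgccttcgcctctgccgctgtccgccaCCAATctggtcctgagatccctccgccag
Hmgcs1: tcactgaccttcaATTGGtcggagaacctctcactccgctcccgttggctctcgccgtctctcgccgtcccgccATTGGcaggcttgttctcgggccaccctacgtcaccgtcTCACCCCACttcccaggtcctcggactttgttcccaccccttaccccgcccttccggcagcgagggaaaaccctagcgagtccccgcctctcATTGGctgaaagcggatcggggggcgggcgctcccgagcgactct
Idi1: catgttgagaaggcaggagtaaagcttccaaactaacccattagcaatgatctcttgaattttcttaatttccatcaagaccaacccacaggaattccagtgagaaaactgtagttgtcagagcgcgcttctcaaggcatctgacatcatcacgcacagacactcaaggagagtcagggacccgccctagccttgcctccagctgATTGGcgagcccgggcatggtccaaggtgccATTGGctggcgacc
In Hmgcs1 the core starts at position -137 from the gene start and its nearest printed CCAAT match at -176, and a further one lies past the start, outside the printed bases. Of the windows searched, that of Hmgcs1 alone had bases past the start that were not found as a run in a GENCODE transcript. The Cyp51 match starts at -29, and those of Idi1 at -45 and -14.

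Library totals ranged from 13548003 to 17281262 counts, and the 8 genes had between 153 and 2192 counts in every library, so that counting error was small beside the spread between mice. All 8 passed the filter on low counts and were among the 14431 genes tested. The tissue carried its markers in every group: the summed level of 6 smooth muscle markers was 30042 to 51829 CPM (counts scaled to the effective library total) in FeCon and 27510 to 59714 CPM in MaCon. Marker levels of several cell types differed between AAD and controls. All 6 smooth muscle markers fell in FeAAD and in MaAAD against the controls of the same sex, with sums of 13829 to 31672 CPM in FeAAD and 11730 to 29183 CPM in MaAAD. All 5 macrophage markers rose in both, with sums of 187 to 445 CPM in FeCon and 459 to 4632 CPM in FeAAD, and of 158 to 422 CPM in MaCon and 610 to 2867 CPM in MaAAD. All 5 proliferation markers rose in both as well, from at most 15.5 CPM in any FeCon library to 29.1 to 422 CPM in FeAAD. In FeNonAD against FeCon 4 of 5 proliferation markers rose as well (Cdk1, Ccnb1, Mki67 and Top2a), with sums of 6.07 to 45.5 CPM, and the smooth muscle marker Lmod1 and the endothelial marker Pecam1 fell. Neutrophil marker sums were 1.13 to 5.45 CPM in FeCon and 5.76 to 848 CPM in FeAAD, so that every FeAAD library lay above every FeCon library. They were 1.47 to 9.69 CPM in MaCon and 7.31 to 212 CPM in MaAAD. The sums exceeded 100 CPM in 3 libraries, FeAAD5 (848 CPM), MaAAD7 (212 CPM) and FeAAD9 (185 CPM). Of the other lists, the fibroblast marker Col1a1 was higher in FeNonAD, FeAAD and MaAAD than in the controls of the same sex, and Lum in both AAD groups. Pdgfra rose in MaAAD and Pi16 fell in FeAAD. The summed fibroblast level was 4578 to 6890 CPM in FeCon, 5346 to 10565 CPM in FeNonAD and 6955 to 13492 CPM in FeAAD, and 4879 to 6593 CPM in MaCon and 6887 to 13964 CPM in MaAAD. The endothelial markers Cdh5 and Tie1 rose in both AAD groups, and Pecam1 fell in FeAAD. Of 6 lymphocyte markers, 3 rose in FeAAD, Cd79a and Ms4a1 among them, 2 in MaNonAD (Cd79a and Ms4a1) and 1 in MaAAD (Cd79a), with sums of 1.70 to 11.3 CPM in FeCon and 2.35 to 23.6 CPM in FeAAD. Of 6 heart muscle markers, 4 fell in FeAAD (Myl7, Tnnt2, Actc1 and Myl3), with sums of 36.6 to 556 CPM in FeCon and 13.6 to 94.0 CPM in FeAAD. The skeletal muscle marker Tnnt3 fell in FeNonAD and FeAAD, and Acta1 in FeAAD. The fat marker Lep fell and the Schwann cell marker Mag rose in FeAAD, and Mbp rose in MaAAD. No marker of these lists was at 0 throughout a group. In such bulk samples, a change in the number of cells of a type and a change of RNA per cell cannot be told apart, and the part of cell composition in the results was not tested.

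Per length of the longest GENCODE M21 transcript, the 8 genes fell into a range from 2.88 to 21.8 CPM per kilobase as medians over the 48 libraries. Hmgcs1 (21.8), Insig1 (21.0) and Fdft1 (18.0) were highest, followed by Fdps (12.5), Idi1 (9.10), Cyp51 (8.25) and Sqle (6.66), and Lss (2.88) was lowest. In FeCon the 3 highest genes did not differ beyond their spread, at 19.4 ± 6.07 for Hmgcs1, 20.2 ± 11.5 for Insig1 and 21.5 ± 6.52 CPM per kilobase for Fdft1 (SD, n = 10). Lss had the lowest mean there, at 2.74 ± 0.520 CPM per kilobase (SD, n = 10), though its spread touched that of Cyp51 (6.09 ± 2.92). Cyp51 and Sqle (6.35 ± 2.00) lay within each other's spread (SD, n = 10). Between libraries, Cyp51 varied most, by 7.56-fold from 14.1 CPM in library FeCon7 to 106 CPM in FeAAD9. Idi1 varied by 6.39-fold, Sqle by 5.26-fold, Fdps by 5.09-fold, Insig1 by 4.22-fold, Hmgcs1 by 3.61-fold, Lss by 2.95-fold and Fdft1 by 2.87-fold. The highest library was FeAAD9 for 5 of the 8 genes (Sqle, Idi1, Fdps, Lss and Cyp51). The lowest was MaCon10 for 3 (Hmgcs1, Idi1 and Lss).

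**Figure D1:**
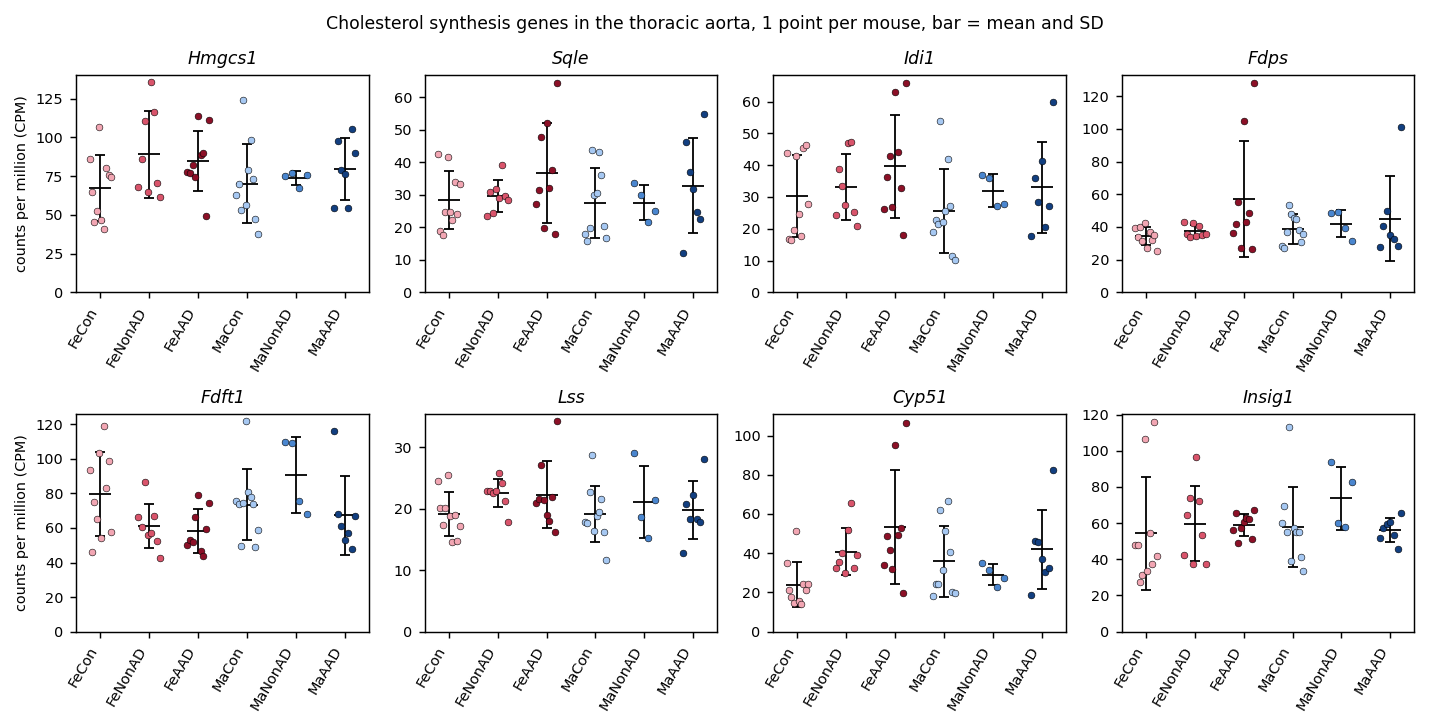
CPM of each of the 8 genes in each mouse (points) with the group mean and SD (bars), by group. Cyp51 has its lowest group median, 21.3 CPM, in FeCon, whose libraries overlap with those of every other group, and Fdps shows 3 high libraries, at 105, 128 and 101 CPM, among mice with AAD.

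The first question was whether dissection or aneurysm went with another level of these genes in females. Cyp51 and Fdps rose and Fdft1 fell in FeAAD against FeCon, and the other 5 genes did not pass the test. Among all genes tested, 23.8% passed as higher and 20.6% as lower in this comparison (edgeR quasi-likelihood test, adjusted p under 0.05), against 2 of 8 and 1 of 8 of the members, so that their share was near that of all genes. Where a change of at least 1 on the log2 scale was also asked for, only Cyp51 was called, against 9.94% of all genes as higher. The median log2 fold change of the 8 genes was 0.35, and that of all genes was 0.00, with 7 of 8 members and 50.1% of all genes above 0.

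Cyp51, the lanosterol demethylase, was at 14.1 CPM in the lowest, 21.3 CPM in the median and 51.5 CPM in the highest FeCon library. In FeAAD these values were 19.6, 48.9 and 106 CPM. Of the FeAAD libraries, 8 of 9 lay above the FeCon mean, yet the ranges overlapped, because library FeCon5 stood above 6 FeAAD libraries and FeAAD8 lay below 6 controls. Its log2 fold change of 1.16 (SE 0.28) corresponds to a 2.23-fold rise and passed the test (adjusted p = 0.000757). The mean went from 24.0 ± 11.5 CPM (SD, n = 10) to 53.3 ± 29.0 CPM (SD, n = 9). The 2 highest values, 95.4 and 106 CPM, came from FeAAD5 and FeAAD9, the female libraries with over 100 CPM of neutrophil markers. Without these and MaAAD7, a choice made after seeing the data, the log2 fold change was 0.73 (SE 0.26) and the gene was still called (adjusted p = 0.0221).

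Fdps, the farnesyl diphosphate synthase, was at 25.1 CPM in the lowest, 34.2 CPM in the median and 42.4 CPM in the highest FeCon library. In FeAAD the values were 26.5, 42.7 and 128 CPM, and 5 of 9 FeAAD libraries lay above every control. Its rise was 0.73 in log2 units (SE 0.22) with an adjusted p of 0.00641. This call rested on few libraries. FeAAD5 (105 CPM) and FeAAD9 (128 CPM) stood apart from the other 7, of which the highest was at 55.3 CPM. Without FeAAD9 the rise was 0.48 (adjusted p = 0.0515), and without the 3 libraries rich in neutrophil markers it was 0.21 (adjusted p = 0.241).

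Fdft1, the squalene synthase, went the other way. FeCon libraries reached from 46.1 CPM through a median of 79.1 CPM to 119 CPM, and FeAAD libraries from 43.7 CPM through 53.0 CPM to 79.0 CPM. Every FeAAD library lay below the FeCon mean of 79.6 ± 24.1 CPM (SD, n = 10), although the ranges overlapped. The log2 fold change was -0.45, with an SE of 0.17 and an adjusted p of 0.0276. The call was lost when any 1 of 8 libraries was left out, FeCon1, FeCon5, FeCon7, FeCon9, FeAAD1, FeAAD2, FeAAD6 or FeAAD7, with adjusted p up to 0.0841, while the direction stayed.

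The other 5 genes had log2 fold changes between 0.12 and 0.39 in FeAAD against FeCon. Hmgcs1 (HMG-CoA synthase) had medians of 69.6 CPM in FeCon, with libraries from 41.1 to 107 CPM, and 82.0 CPM in FeAAD, with libraries from 49.5 to 114 CPM. The ranges overlapped almost fully, and the difference of 0.33 in log2 units (SE 0.19) had an adjusted p of 0.145. Sqle, which feeds Lss, had a median of 24.8 CPM (17.7 to 42.5 CPM) in FeCon and of 32.2 CPM (17.8 to 64.4 CPM) in FeAAD (log2 0.37, SE 0.23, adjusted p = 0.186). Idi1 had medians of 26.2 CPM (16.5 to 46.5 CPM) and 36.4 CPM (18.2 to 65.7 CPM) in the same groups (log2 0.39, SE 0.26, adjusted p = 0.232). The upper ends of Sqle and Idi1 in FeAAD were again libraries FeAAD5 and FeAAD9. Lss, the cyclase, had medians of 18.9 CPM (14.5 to 25.5 CPM) and 21.4 CPM (16.2 to 34.3 CPM), and Insig1, the sterol-sensing regulator, of 44.7 CPM (27.5 to 116 CPM) and 60.4 CPM (48.95 to 67.2 CPM). Neither passed the test, with adjusted p of 0.205 for Lss and 0.684 for Insig1. All 9 FeAAD libraries lay within the range of FeCon for Insig1.

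**Figure D2:**
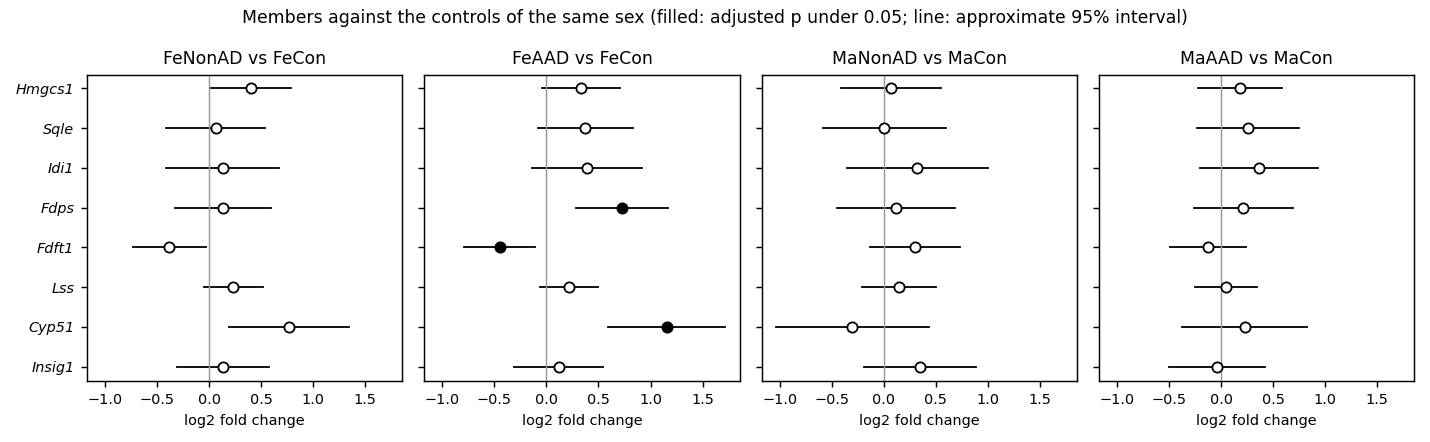
Log2 fold change of each gene against the controls of the same sex, with approximate 95% intervals (lines) and calls at adjusted p under 0.05 (filled). Filled points appear only in FeAAD against FeCon, for Fdps, Fdft1 and Cyp51.

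In males, the same question gave no call in the 6-group model, whereas 3 genes were called once a clock term was added, as described further on, with Cyp51 at 0.79 and Idi1 at 0.81 in log2 units. In MaAAD against MaCon, 0 of 8 genes passed in either direction, against 18.9% of all genes as higher and 16.1% as lower. At an unadjusted p under 0.05 there were 0, against 43.6% of all genes, and DESeq2 called 0. The median log2 fold change of the 8 genes was 0.20, against -0.03 for all genes. Cyp51 was at 18.0 CPM in the lowest, 28.0 CPM in the median and 66.7 CPM in the highest MaCon library, and at 18.5, 37.1 and 82.4 CPM in MaAAD. The groups overlapped nearly throughout, and the log2 fold change was 0.23 (95% interval -0.37 to 0.82, adjusted p = 0.587). Fdps was at 26.9, 37.6 and 53.2 CPM in MaCon and at 27.7, 34.8 and 101 CPM in MaAAD. Its high library was MaAAD7, and the other 6 were at 49.7 CPM or lower. Fdft1 had medians of 74.0 CPM in MaCon (49.1 to 122 CPM) and 61.3 CPM in MaAAD (47.9 to 116 CPM), a difference of -0.13 in log2 units (SE 0.18) with an adjusted p of 0.612. Of the remaining genes, Idi1 had the highest value, 0.37 (SE 0.28, adjusted p = 0.321), and Insig1 the lowest, -0.04 (SE 0.23, adjusted p = 0.908).

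The second question was whether mice that took BAPN without lesions differed from controls. In FeNonAD against FeCon 0 of 8 genes were called by edgeR, where 6.87% of all genes passed as higher and 7.66% as lower. At an unadjusted p under 0.05 there were 3 (Hmgcs1, Fdft1 and Cyp51), against 28.9% of all genes, and DESeq2 called 1, Cyp51. Cyp51 was at 30.1, 37.2 and 65.5 CPM in the lowest, median and highest FeNonAD library. All 8 FeNonAD libraries lay above the FeCon mean, and FeCon1 and FeCon5 alone among controls reached into their range. The difference was 0.77 in log2 units, with an SE of 0.29 and an adjusted p of 0.0633. It became a call in 5 alternatives: DESeq2, a fit of both groups alone, a fit without library FeCon5, a fit without the 3 libraries rich in neutrophil markers and a fit with a clock term described further on. Hmgcs1 differed by 0.40 in log2 units (SE 0.19) without passing (adjusted p = 0.152), and its FeNonAD libraries ran from 61.6 through 78.2 to 136 CPM. Fdft1 was at 42.5, 59.0 and 86.5 CPM in FeNonAD (log2 -0.38, SE 0.18, adjusted p = 0.138).

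In MaNonAD against MaCon, 0 of 8 genes were called, against 0.624% of all genes, and DESeq2 called 0. At an unadjusted p under 0.05 there were 0, against 12.0% of all genes. Cyp51 was at 22.7, 27.3, 31.3 and 35.0 CPM in the 4 MaNonAD libraries, all under the MaCon mean of 35.8 ± 18.3 CPM (SD, n = 10). Its log2 fold change was -0.30 with a 95% interval of -1.03 to 0.43, and its direction turned, to 0.38 (SE 0.34), with the clock term described further on. Fdft1 was at 67.9, 75.5, 109 and 109.9 CPM, and Insig1 at 57.9, 60.2, 82.9 and 93.8 CPM, each inside the range of MaCon. For Fdft1 the log2 difference was 0.30 with a 95% interval of -0.13 to 0.73, and for Insig1 it was 0.35 with an interval of -0.19 to 0.89. With the clock term Insig1 was at 0.83 (SE 0.26, adjusted p = 0.0804).

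The step from NonAD to AAD gave no call in either sex. In FeAAD against FeNonAD, 0 of 8 genes passed, where 13.2% of all genes were called as higher and 5% as lower. At an unadjusted p under 0.05 there was 1, Fdps (log2 0.59, SE 0.24, adjusted p = 0.0699), against 32.1% of all genes, and DESeq2 called 0. Fdps in FeNonAD kept to a narrow range, from 33.8 to 42.8 CPM, which 4 of 9 FeAAD libraries exceeded and 2 fell below. In MaAAD against MaNonAD, 0 of 8 passed, against 0.409% of all genes, and DESeq2 called 0. At an unadjusted p under 0.05 there were 0, against 18.7% of all genes.

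The third question was whether the sexes differed. Between MaCon and FeCon 0 of 8 genes were called (14.3% of all genes). At an unadjusted p under 0.05 there was 1, against 29.1% of all genes. It was Cyp51, 0.58 higher in MaCon on the log2 scale (SE 0.27, adjusted p = 0.145), and 0.16 (SE 0.25) with the clock term. DESeq2 called 0. Between MaNonAD and FeNonAD 0 of 8 were called (0.0624% of all genes), also with DESeq2, with 1 gene, Fdft1, at an unadjusted p under 0.05 (log2 0.57, SE 0.22, adjusted p = 0.720), against 6.47% of all genes. Between MaAAD and FeAAD 0 of 8 were called (0.0901% of all genes), also with DESeq2. At an unadjusted p under 0.05 there were 0 as well, against 2.22% of all genes. Whether the log2 fold changes between outcome groups differed between the sexes was tested as an interaction, which Cyp51 did not pass. All BAPN mice of a sex together were not compared with controls. For AAD against Con the male minus female difference was -0.93 (SE 0.41, adjusted p = 0.254), and for NonAD against Con it was -1.07 (SE 0.47, adjusted p = 0.322), with unadjusted p of 0.0282 and 0.0276 in the edgeR model. With the clock term these differences were -0.27 (SE 0.38, adjusted p = 0.789) and -0.34 (SE 0.42, adjusted p = 0.853). Across the 3 interaction tests, 0 of 8 members were called, against 0.416% of all genes for NonAD against Con, 1.34% for AAD against Con and 0% for AAD against NonAD. At an unadjusted p under 0.05 there were 2 members for NonAD against Con (Fdft1 and Cyp51), against 12.1% of all genes, 1 for AAD against Con (Cyp51), against 15.4%, and 0 for AAD against NonAD, against 1.04%, and DESeq2 called 0 in each.

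Mice of the same group varied, and most of the genes shared this variation. With group means subtracted from log2(CPM + 1), 23 of the 28 pairs of members correlated over the 48 libraries (Pearson's r, permutation test of 100000 resamples, adjusted over 28 pairs). Sqle and Cyp51 had the highest correlation (r = 0.87, rho = 0.86), followed by Hmgcs1 and Idi1 (r = 0.86, rho = 0.84) and Idi1 and Cyp51 (r = 0.84, rho = 0.83), each with a permutation p of 1e-05 for r and for rho, the smallest that 100000 resamples can give, and an adjusted p of 1.87e-05 for r. Leaving out the 2 libraries farthest from the median of the first-named gene of the pair left r at 0.85, 0.82 and 0.83. The 15 pairs among Hmgcs1, Sqle, Idi1, Fdps, Lss and Cyp51 all passed, with r from 0.39 to 0.87 and rho from 0.37 to 0.86.

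Insig1 followed Hmgcs1 (r = 0.65, rho = 0.61) and Idi1 (r = 0.61, rho = 0.60) more closely than Fdps (r = 0.18, rho = 0.18, permutation p = 0.222, adjusted p = 0.24). Fdft1 had the weakest correlations: its 7 pairs had r from 0.01, with Lss, to 0.32, and 3 of 7 passed by Pearson's r and 5 of 7 by Spearman's rho. The 2 libraries farthest from the median of 1 gene of the pair were then left out. Where that gene was Fdft1, r moved with Lss from 0.01 to 0.15, with Cyp51 from 0.22 to 0.36 and with Insig1 from 0.32 to 0.37. Where it was Sqle, r with Sqle moved from 0.15 to 0.29. MaAAD1 was among the libraries left out in each of these pairs. For Hmgcs1, Idi1 and Fdps the choice was by these genes and not by Fdft1, and MaAAD1 stayed in. There r moved from 0.20 to 0.18 with Hmgcs1, from 0.31 to 0.30 with Idi1 and from 0.32 to 0.31 with Fdps. Within single groups of at least 7 mice, the median r over the 21 pairs without Fdft1 was 0.57 in FeCon, 0.49 in FeNonAD, 0.69 in FeAAD, 0.79 in MaCon and 0.78 in MaAAD. Single pairs ran from 0.03 to 0.91 in FeCon, from -0.53 to 0.96 in FeNonAD and from 0.25 to 0.95 in FeAAD. In males they ran from 0.24 to 0.96 in MaCon and from 0.06 to 0.95 in MaAAD. By the median pair, the shared variation was thus present in controls as well as in mice with AAD, but not every pair shared it within a group. The points of these correlations share libraries and normalization.

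**Figure D3:**
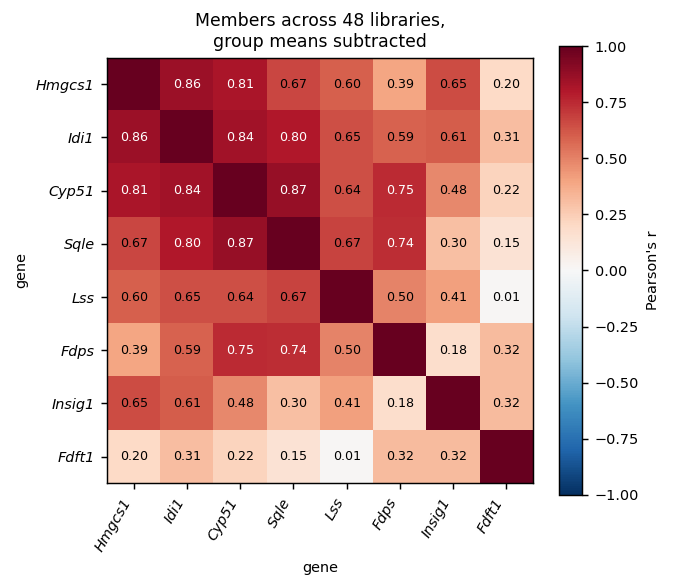
Pearson's r between members over 48 libraries after subtraction of group means. The block of Hmgcs1, Idi1, Cyp51 and Sqle has r from 0.67 to 0.87, and the row of Fdft1 stays at 0.32 or lower.

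The mean of the standardized levels of the 8 genes (each gene scaled to mean 0 and SD 1 over the libraries) ranked the libraries from FeAAD9 (1.87), MaAAD7 (1.37), MaCon4 (1.35), FeAAD5 (1.32) and FeCon5 (1.12) down to MaCon9 (-1.20) and MaCon10 (-1.53). All 8 genes lay above their medians in 6 libraries (FeAAD9, MaAAD7, MaCon4, FeCon5, FeNonAD6 and MaAAD2), and none did in 6 others (MaCon10, MaCon9, FeAAD8, FeCon6, FeCon2 and MaAAD5). Both ends held controls as well as AAD mice. The 2 lowest libraries had smooth muscle marker sums of 51161 and 58089 CPM, in the upper part of the MaCon range. Over the 48 libraries the mean correlated by r = 0.43 with the log2 sum of neutrophil markers, 0.37 with proliferation, 0.31 with macrophage, -0.29 with smooth muscle, -0.36 with endothelial markers. It correlated by r = -0.39 with the log2 sum of 14 clock genes and by 0.27 with the log2 difference of Arntl and Dbp described further on, and the other 7 marker lists had r from -0.21 (brown adipocyte) to 0.05 (fibroblast). These values are descriptions over libraries that also differ in group.

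Outside the 8 genes, those with the most similar pattern were mostly further genes of the same pathway, though the lists they belong to hold only 0.395% of the genes compared. Over the 48 libraries the 10 genes with the highest r to the members' mean included Msmo1 (0.89), Hsd17b7 (0.82), Sc5d (0.82), Stard4 (0.75), Tnfrsf10b (0.74), Ell2 (0.73) and Nsdhl (0.72). Msmo1, Hsd17b7, Sc5d and Nsdhl catalyse steps from lanosterol to cholesterol, and Stard4 carries cholesterol between membranes. After subtraction of group means 8 of these 10 remained, with Msmo1 at 0.89, Hsd17b7 at 0.82 and Stard4 at 0.79, and Blm (0.74) and Scd2 (0.73) took the places of Tnfrsf10b and Nsdhl. Srebf2, which encodes the controlling factor, had r = 0.46 over the libraries and 0.59 with group means subtracted. Mvk, Acat2 and Tm7sf2 of the synthesis pathway had r of 0.22 or lower on both scales, while Pmvk went from 0.10 to 0.43 once group means were subtracted.

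A further difference between libraries moved with several members. Arntl and Dbp, clock genes that peak at opposite times of day in the arteries of mice, differed widely within groups. The log2(CPM + 1) of Arntl minus that of Dbp ran from -7.49 to 0.32 in FeCon, from -7.45 to 3.84 in FeNonAD and from -6.40 to 1.60 in FeAAD. In males it ran from -7.50 to 3.62 in MaCon, but only from -7.23 to -4.22 in MaNonAD and from -6.43 to -3.64 in MaAAD. Of the 14 clock genes, 2 rose and 3 fell in MaAAD against MaCon (Arntl among those that fell), 3 fell in FeAAD and 1 fell in FeNonAD against FeCon (Cry2 in both), and 0 passed in MaNonAD. Among all genes, 18.9% passed as higher and 16.1% as lower in MaAAD. As lower, 20.6% passed in FeAAD and 7.66% in FeNonAD, and 0.624% passed either way in MaNonAD. The counts of clock genes were near these shares. The difference was above -2 in 8 of 10 MaCon libraries and in 0 of 11 male BAPN libraries, so that this difference and BAPN treatment cannot be fully told apart in males. The study's methods place the collection of feces in the morning of a single day, right before the mice were killed, and give no hour for the aorta of each mouse.

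With this difference as a term beside the 6 groups, a choice made after the values had been seen, 4 of 8 members were called as higher with more Arntl, against 5.04% of all genes. These were Cyp51 (0.11 on the log2 scale per unit, adjusted p = 0.00444), Insig1 (0.08, adjusted p = 0.00641), Hmgcs1 (0.07, adjusted p = 0.00724) and Idi1 (0.08, adjusted p = 0.0342). Sqle, Fdps, Lss and Fdft1 did not pass, with adjusted p from 0.138 to 0.725. In the same fit, the female calls stayed (Cyp51 1.06, Fdps 0.68 and Fdft1 -0.45 in FeAAD against FeCon). In MaAAD against MaCon, 3 of 8 members became calls, all higher, against 20% of all genes as higher. They were Idi1 (log2 0.81, SE 0.29, adjusted p = 0.0242), Cyp51 (0.79, SE 0.28, adjusted p = 0.024) and Hmgcs1 (0.55, SE 0.20, adjusted p = 0.0222), none of which was a call without the term. Insig1 in MaAAD against MaCon went from -0.04 to 0.38 (SE 0.22, adjusted p = 0.174). The part of the time of collection in the group differences was not tested.

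**Figure D4:**
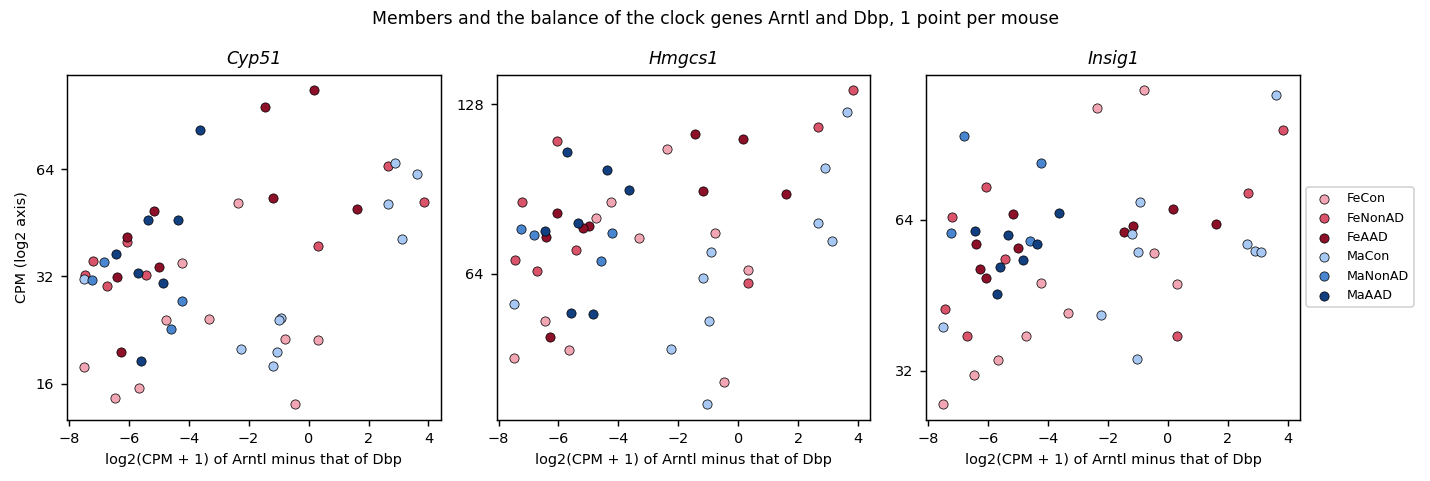
CPM of Cyp51, Hmgcs1 and Insig1 (log2 axis) against the log2(CPM + 1) of Arntl minus that of Dbp, 1 point per mouse, coloured by group. MaNonAD and MaAAD lie between -7.23 and -3.64, and MaCon reaches 3.62.

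Of the other 13 synthesis genes, 8 rose and 1 fell in FeAAD against FeCon, where 23.8% of all genes passed as higher and 20.6% as lower. Dhcr7, which catalyses a last reduction to cholesterol, rose by 1.07 in log2 units, with an SE of 0.14 and an adjusted p of 5.04e-08. Mvd, Ebp, Msmo1, Nsdhl and Sc5d were among the others that rose, with Mvd at 1.14 (SE 0.25, adjusted p = 0.000179) and Ebp at 0.58 (SE 0.12, adjusted p = 0.000153). Pmvk, the phosphomevalonate kinase, fell by 1.13, with an SE of 0.18 and an adjusted p of 2.87e-06. The median of the 13 was 0.50, against 0.00 for all genes. In MaAAD against MaCon 2 of 13 rose, Ebp among them by 0.36 (SE 0.13, adjusted p = 0.0303), and 1 fell, Tm7sf2, with a median of 0.27, where 18.9% of all genes passed as higher and 16.1% as lower.

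For Dhcr7 and Pmvk the FeCon mean lay outside the means of the other 5 groups. Dhcr7 was at 7.08 ± 1.82 CPM (SD, n = 10) in FeCon and between 13.2 and 14.8 CPM as the mean of each of the other 5 groups. No FeCon library exceeded 10.3 CPM and no FeNonAD library lay below 11.7 CPM and no FeAAD library below 11.6 CPM, so FeCon overlapped neither group. Of the MaCon libraries, 9 of 10 lay above every FeCon library. Pmvk was at 46.2 ± 14.7 CPM (SD, n = 10) in FeCon and between 18.2 and 23.8 CPM as the mean of the other groups. Its FeCon libraries reached from 14.4 to 66.5 CPM, and the lowest lay below every FeNonAD, FeAAD and MaCon library, so that these groups overlapped with FeCon. Both also differed between MaCon and FeCon, as 3 of the 13 genes did (Dhcr7 and Tm7sf2 higher and Pmvk lower in MaCon), against 14.3% of all genes. In FeNonAD against FeCon, 1 of 13 rose, Dhcr7 (log2 0.98, SE 0.14, adjusted p = 1.14e-05), and 1 fell, Pmvk (-1.19, SE 0.19), against 6.87% of all genes as higher and 7.66% as lower. In FeAAD against FeNonAD 0 of 13 passed by edgeR, 5 had an unadjusted p under 0.05, against 32.1% of all genes, and DESeq2 called 2. In MaNonAD against MaCon 0 of the 57 genes in the 6 other lists passed by edgeR or DESeq2, and 16 had an unadjusted p under 0.05, against 12.0% of all genes. Pmvk had 3 values that were not whole, as some of its reads were shared out between genes.

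Among the 7 genes that control SREBP, Srebf2 did not pass in any of the 4 comparisons with controls, with log2 values from -0.23 to 0.10. Insig2, which retains SREBP like Insig1, fell in FeAAD by 0.76 (SE 0.09, adjusted p = 2.13e-09), in FeNonAD by 0.56 (SE 0.09) and in MaAAD by 0.36 (SE 0.09, adjusted p = 0.00176). The FeCon mean of 87.1 ± 14.8 CPM stood above the MaCon mean of 63.7 ± 4.13 CPM (SD, n = 10 each), and Insig2 too was called between the controls. Srebf1, which favours fatty acid genes, rose in FeAAD (0.36, SE 0.15, adjusted p = 0.0455) and FeNonAD (0.48, SE 0.15, adjusted p = 0.0307), and in MaAAD it was at 0.34 (adjusted p = 0.0954). In all, 1 rose and 2 fell in FeAAD (Srebf1 rose, and Insig2 was among those that fell), 1 rose and 1 fell in MaAAD (Mbtps2 at 0.36, adjusted p = 0.0144, and Insig2), and 2 rose and 1 fell in FeNonAD (Scap and Srebf1, and Insig2). Among all genes, 23.8% passed as higher and 20.6% as lower in FeAAD, 18.9% and 16.1% in MaAAD, and 6.87% and 7.66% in FeNonAD.

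Of 11 uptake and transport genes, 6 rose and 1 fell in FeAAD, where 23.8% of all genes passed as higher and 20.6% as lower. In MaAAD 7 of 11 rose and 1 fell, against 18.9% and 16.1% of all genes, and the other 4 genes in females and 3 in males did not pass. Soat1, which esterifies cholesterol for storage, rose by 1.02 in MaAAD (SE 0.17) and Lipa, the lysosomal acid lipase, by 0.69 in FeAAD (SE 0.12), while Vldlr fell by 1.03 in FeAAD (SE 0.17). Stard4 rose in both, by 0.58 (SE 0.19) in females and 0.86 (SE 0.21) in males. In FeNonAD 1 of 11 rose, Lipa, against 6.87% of all genes. In FeAAD against FeNonAD 3 rose, Soat1 and Npc2 among them, and 1 fell (Vldlr), against 13.2% of all genes as higher and 5% as lower.

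Of the oxysterol and efflux genes, 4 of 8 rose in FeAAD (Ch25h, Cyp7b1, Abca1 and Abcg1) and 5 in MaAAD (these and Apoe), and 2 fell in both (Nr1h2 and Cyp27a1). Of all genes, 23.8% passed as higher and 20.6% as lower in FeAAD, and 18.9% and 16.1% in MaAAD, so that the share that fell was near that of all genes. In FeNonAD against FeCon 0 of 8 passed by edgeR or DESeq2, and 3 had an unadjusted p under 0.05, against 28.9% of all genes. Ch25h, a cholesterol hydroxylase induced in macrophages, rose by 2.95 in FeAAD (SE 0.42) and 4.27 in MaAAD (SE 0.47), and was at 1.34 ± 0.654 CPM in FeCon (SD, n = 10) against 10.4 ± 8.66 CPM in FeAAD (SD, n = 9). The efflux pumps Abca1 and Abcg1 rose too, Abca1 by 0.65 (SE 0.17) in FeAAD and 1.01 (SE 0.18) in MaAAD and Abcg1 by 1.81 (SE 0.24) in MaAAD. Macrophage marker sums rose in the same groups, as given above. Ch25h was the only 1 of the 57 genes called in MaAAD against MaNonAD, against 0.409% of all genes, and DESeq2 called 3.

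Of 10 fatty acid synthesis genes, 1 rose against the controls in each AAD group, Scd2, a desaturase, by 1.13 (SE 0.17, adjusted p = 6.14e-07) in FeAAD and 0.55 (SE 0.18, adjusted p = 0.0134) in MaAAD. Scd2 also rose in FeNonAD against FeCon, by 0.90 (SE 0.17, adjusted p = 0.0004), and was 0.57 higher in MaCon than in FeCon (SE 0.16, adjusted p = 0.0166). It passed neither in FeAAD against FeNonAD (0.22, adjusted p = 0.398) nor in MaAAD against MaNonAD (0.31, adjusted p = 0.498). Acss2 and Elovl6, next by adjusted p in the list, did not pass in any within-sex comparison. Of 8 genes for nonsterol isoprenoids, which share farnesyl diphosphate with the sterol branch, 2 rose (Nus1 and Fntb) and 2 fell (Coq2 and Ggps1) in FeAAD, 3 fell in MaAAD (Fnta, Coq2 and Dhdds) and 1 fell in FeNonAD (Ggps1). Of all genes, 23.8% passed as higher and 20.6% as lower in FeAAD, 18.9% and 16.1% in MaAAD, and 6.87% and 7.66% in FeNonAD. Fnta, a subunit of protein farnesyltransferase, fell by 0.36 in MaAAD (SE 0.07, adjusted p = 9.86e-05), Coq2, of ubiquinone synthesis, fell by 0.34 (SE 0.07, adjusted p = 0.000262), and Ggps1 fell by 0.38 in FeAAD (SE 0.09, adjusted p = 0.000465).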

How the data were processed

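RNA of the thoracic aorta of 48 mice was sequenced as strand-specific mRNA libraries. The submitters' processing notes name Bowtie2, RSEM 1.3.1 and the GRCm39 build. The authors deposited 1 table of expected counts per gene, not scaled to library size, for 18782 genes listed by symbol. Of its values, 4.99% were not whole, and none of these belonged to the 8 genes. All were rounded. Groups were taken from the sample labels, and replicates were separate mice. The reference at hand was of another build, so that no positions are given beyond those of RefSeq promoters (GRCm38.p6).

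Counts were filtered with filterByExpr, scaled by TMM (factors 0.874 to 1.08) and tested in edgeR 4.0.16 under R 4.3.3 with its quasi-likelihood method, robust settings on. One model with 6 group means covered all 14431 genes kept, with Benjamini-Hochberg adjustment. The script recovered changes put into simulated counts. Standard errors and 95% intervals were derived from the test statistic. CPM used TMM-scaled library sizes, and logs used a pseudocount of 1 CPM. DESeq2 1.42.0 and other settings were alternatives. Correlations used Python 3.11.15 and numpy 2.4.6. The members and all gene lists were chosen with earlier results of these data known. Named were all members, up to 3 genes per list with the smallest adjusted p within a sex, Srebf1, Srebf2, Insig2, Abca1 and a few further genes, and the 10 genes most like the members in pattern with and without group means. Other genes were named where a count needed its members or where values bore on a result, and were chosen after their values were seen, as were Arntl and Dbp. Some genes that this rule names are not reported here.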

Additional observations from a re-analysis of the deposited data

Results flagged for a closer look

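Among 48 sets of 1 member in 1 group, 1 held a library far from the others, and chance alone marks about 1 in 20 such sets. Fdft1 was at 116.0 CPM in library MaAAD1, while the other 6 MaAAD libraries lay between 47.9 and 68.2 CPM. The same library had the highest adipocyte marker sum of the 48, at 5397 CPM, against 438 to 1274 CPM in the other MaAAD libraries, and its mean standardized level of the 8 members was -0.91. The part of fat tissue in this value was not tested.

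For 2 of the 57 genes in the 6 other lists, the log2 fold change of AAD against Con differed between the sexes by the interaction test of edgeR, which called 1.34% of all genes. Dhcr7 had a male minus female difference in log2 fold change of -0.91 (adjusted p = 0.0148), from a rise of 1.07 in females and a value of 0.15 in males. MaCon and FeCon means were 13.2 and 7.08 CPM. Fnta had a difference of -0.41 (adjusted p = 0.0213), with means of 68.3 CPM in MaCon, 53.3 CPM in MaAAD, 53.9 CPM in FeCon and 55.9 CPM in FeAAD. For both genes, the control groups differed more than the AAD groups did.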

How the results depend on the processing

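The count of members called in FeAAD against FeCon was 3 with DESeq2, with its size factors, without the filter, without robust estimation, in a fit of both groups alone and with the clock term, and it lay between 2 and 3 when single libraries were left out. It was 2 without the 3 libraries rich in neutrophil markers, and 1 when a change of at least 1 on the log2 scale was also asked for, by the construction of that rule. With the replicate number as a block it was 3, and the block changed no other count. The replicate numbers did not pair the libraries: in no comparison did every pair of same-numbered libraries correlate above 0.1 (0 of 9 pairs in FeAAD and FeCon, 3 of 8 in FeNonAD and FeCon). The count in FeNonAD against FeCon, 0 in the fit reported, was 1 with DESeq2, 1 in a fit of both groups alone, 1 with the clock term and 1 without the 3 libraries rich in neutrophil markers, and from 0 to 1 over single libraries left out. The count in FeAAD against FeNonAD was from 0 to 1 over single libraries, with Fdps called without FeAAD1, FeAAD4 or FeAAD8. The count in MaAAD against MaCon was 3 with the clock term and 0 otherwise. The clock term and the fit without the 3 libraries were chosen after seeing the data. The cause of these changes was not tested. All other counts stayed at 0 in every alternative. Cyp51 was called in FeAAD against FeCon in every fit, with log2 values from 0.96 to 1.35 over single libraries left out. The other scaling shifted no comparison by more than 0.017 on the log2 scale.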

Other observations

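Insig1, the sterol-sensing member, had a mean of 54.4 CPM in FeCon and 59.1 CPM in FeAAD. The FeCon mean includes the high libraries FeCon5 and FeCon9, and all 9 FeAAD libraries lay above the FeCon median. The SD of Insig1 was 31.1 CPM in the 10 FeCon libraries, 20.9 CPM in the 8 FeNonAD libraries and 6.25 CPM in the 9 FeAAD libraries. In males it was 22.2 CPM in MaCon, 17.5 CPM in MaNonAD and 6.70 CPM in MaAAD. Values over 100 CPM were found in 3 control libraries, FeCon5 (107 CPM), FeCon9 (116 CPM) and MaCon4 (113 CPM). Without them, a choice made after seeing the data, the SD was 9.41 CPM in FeCon and 11.4 CPM in MaCon, so that most of the spread in the controls rested on these 3 libraries. The difference in spread was seen after the values were known and was not tested.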
